A study of Homo sapiens with 74 samples.

Results

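The chromatin of SMARCA4 knockout cells was compared with that of wild-type cells in HAP1, a near-haploid human cell line derived from a chronic myeloid leukaemia. The comparison rests on 6 of the 74 samples of the series, chosen by their labels: 4 libraries of SMARCA4 knockout cells and 2 libraries of wild-type cells. The knockout libraries come from 2 clones, labelled 2878_4 and 2878_6 (called clone 4 and clone 6 here), with replicates 1 and 2 of each, and the wild-type libraries are replicates 1 and 2 of clone C631. The labels give 1 culture medium for all HAP1 cells and no treatment of these 6, and accessibility was read by ATAC-seq, a method that inserts sequencing adapters into open DNA with the transposase Tn5, so that more reads at a region mean more open chromatin. Further libraries were used beside these: 2 of SMARCA4 knockout cells with a control knockdown, 2 of wild-type cells with a SMARCA4 knockdown, 2 of wild-type cells with a control knockdown, and 4 of the ARID1A knockout clones 3 and 10. The labels of the knockdown samples write both sh and si for the agent, which is therefore called a knockdown only. Whether the cells match their HAP1 label was not checked against marker genes, since no annotation of the files' genome build was used. The wild type is a single clone and the knockout is represented by 2, so what belongs to the gene and what belongs to the clones cannot be fully told apart.

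SMARCA4, also called BRG1, is an ATPase of the BAF (SWI/SNF) complexes, which use the energy of ATP to slide or evict nucleosomes. The complexes hold either SMARCA4 or its paralog SMARCA2 as their motor, and ARID1A or ARID1B marks the canonical BAF form. They are best known for keeping distal regulatory elements open, and SMARCA4 is often lost in cancers.

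The 6 libraries held 7933613 to 10286301 reads in the listed regions, with a median of 25 to 35 reads per region. Across the regions of above-median accessibility, log2 accessibility correlated at 0.943 to 0.956 between SMARCA4 libraries, at 0.942 between the wild-type libraries and at 0.813 to 0.846 between a SMARCA4 and a wild-type library. These correlations are descriptive, since regions are not independent replicates. The SMARCA4 window itself, 3 listed regions, held 34.8, 38.1, 35.3 and 39.2 CPM (reads per 1000000 reads of the library) in the knockout libraries and 35.4 and 34.1 CPM in wild type. None of these 3 regions was called, and counts of this kind cannot show whether the gene product is lost.

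Loss of SMARCA4 was accompanied by both closing and opening of chromatin, and on the counts the closing was the larger change at single regions. Of 145532 regions tested, 20200 (13.9%) were lower and 11637 (8%) were higher in the knockout than in wild type, by edgeR's quasi-likelihood test at an adjusted p of 0.05. Such regions are called lost and gained below. The median lost region fell by 1.24 on the log2 scale, and 14922 lost regions were at least 2-fold and 1713 at least 4-fold lower. The median gained region rose by 0.77 on the log2 scale, and 3596 were at least 2-fold and 308 at least 4-fold higher. Across all tested regions the median log2 fold change was 0.01. In 94.3% of the lost regions all 4 knockout libraries lay below both wild-type libraries, against 20.6% of all tested regions. In 95.2% of the gained regions all 4 lay above both, against 17.5% of all tested regions. The calls were made from these same libraries, so this separation describes the calls and does not test them. The count of lost regions was 12765 without wild-type replicate 1. The count of gained regions was 7135 without clone 4 replicate 2, 7298 without clone 6 replicate 2, 6949 with wild-type replicate 1 left out and 5408 with wild-type replicate 2 left out. Against wild-type replicates 5 and 6 in place of 1 and 2 it was 19940, and DESeq2 on the 6 libraries alone called 11619 lost regions.

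The share of calls that were lost depended on the scale. It was 63.4% on the counts. On the authors' deposited normalized values, where the median region was 0.34 higher in the knockout on the log2 scale, 8380 regions were lower and 26377 higher, a lost share of 24.1%. After that median was subtracted, 19822 were lower and 7998 higher, a lost share of 71.3%.

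Most lost regions kept some signal in the knockout. They held a median of 2.39 CPM in the knockout and 5.78 CPM in wild type, and the gained regions held 16.2 CPM in the knockout and 8.68 CPM in wild type, against 3.08 and 3.44 CPM over all tested regions. Only 20.3% of the lost regions had all 4 knockout libraries under 2 CPM, and 12 of these were over 10 CPM in both wild-type libraries. Conversely, 7.65% of the gained regions had both wild-type libraries under 2 CPM, and 5 of these were over 10 CPM in all 4 knockout libraries. Since the calls use the same libraries, these levels describe the calls and do not test them. The most accessible of 4 equal classes of regions held 61.8% of the gained and 38.5% of the lost regions. This class took 68.1%, 69.7%, 68.2% and 69.2% of the reads in the knockout libraries and 67.1% and 64.0% in wild type. The part of this difference between libraries in the calls was not tested.

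The strongest losses lay on 10 different chromosomes. The 10 lowest regions of above-median accessibility fell by 3.57 to 4.22 on the log2 scale, where no clone difference was called and the knockout and wild-type libraries did not overlap. They averaged 0.513 to 2.28 CPM in the knockout and 6.95 to 39.4 CPM in wild type, and were 578 to 1025 bp wide. The lowest was on chromosome 21 (hg19) from 28419401 to 28420301, inside the gene-poor part of 21q21. It held 1.86, 1.11, 1.12 and 1.99 CPM in the knockout libraries and 31.3 and 25.2 CPM in wild type. Its log2 fold change was -4.22 (SE 0.22, adjusted p = 5.86e-39, edgeR). All knockout values were lower than both wild-type values by more than 10-fold.

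A region on chromosome 10 from 65700147 to 65700787 held 2.11, 0.89, 1.12 and 1.54 CPM in the knockout and 26.6 and 24.4 CPM in wild type (log2 fold change -4.17, SE 0.239, adjusted p = 6.49e-35, edgeR). It lies 108 bp from the next listed region, the closest spacing among the 10. On chromosome 11, the region from 55198484 to 55199439 held 3.22, 2.00, 1.91 and 1.99 CPM in the knockout and 48.0 and 30.8 CPM in wild type, the most open of the 10 in wild type (log2 fold change -4.13, SE 0.199, adjusted p = 1.08e-42, edgeR). The region on chromosome 2 from 80688766 to 80689472 held 0.248, 0.89, 1.12 and 0.993 CPM in the knockout and 16.7 and 9.68 CPM in wild type (-4.06, SE 0.301, adjusted p = 5.08e-25, edgeR). On chromosome 4, from 70389027 to 70390052, the knockout libraries held 2.85, 0.445, 2.58 and 1.54 CPM and wild type 29.3 and 24 CPM (-3.87, SE 0.232, adjusted p = 5.65e-33, edgeR). The wild-type values of each of these regions were all several-fold above the highest knockout value. The other 5 lay on chromosomes X, 16, 9, 13 and 17. The one on chromosome X, from 141524404 to 141525151, was the least open of the 10 in wild type, with 0.496, 0.667, 0.449 and 0.441 CPM in the knockout and 8.15 and 5.74 CPM in wild type. It rests on 4 to 6 reads in each knockout library.

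The strongest gains had wild-type averages from below to above the median of all tested regions. They were picked among regions whose mean over all 56 libraries was above its median of 3.41 CPM. That mean includes the knockout libraries, so the wild-type level depends in part on the rule. The 10 highest regions rose by 2.87 to 3.66 on the log2 scale, with averages of 13.2 to 32.9 CPM in the knockout and 1.71 to 4.04 CPM in wild type, where the median of all tested regions was 3.44 CPM. The highest was on chromosome 1 from 97063749 to 97064425, with 31.0, 37.5, 28.4 and 34.8 CPM in the knockout and 3.20 and 1.91 CPM in wild type (log2 fold change 3.66, SE 0.298, adjusted p = 7.66e-22, edgeR). On chromosome 15, from 96389013 to 96389681, the knockout held 23.8, 30.3, 17.1 and 23.4 CPM and wild type 1.55 and 3.35 CPM (3.28, SE 0.333, adjusted p = 8.21e-16, edgeR). At both regions each clone lay above wild type by more than 5-fold.

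On chromosome 13, from 71533364 to 71534046, the knockout held 32.9, 36.5, 26.8 and 35.1 CPM and wild type 2.52 and 4.54 CPM (3.23, SE 0.283, adjusted p = 1.09e-19, edgeR). Chromosome 6 held 2 of the 10, from 94775336 to 94776119 and from 94105211 to 94105864, with log2 fold changes of 2.94 and 2.87. The first of these had 19.8, 21.9, 16.3 and 20.2 CPM in the knockout and 2.23 and 2.87 CPM in wild type. On chromosome 3, from 25197461 to 25198650, the knockout held 25.2, 38, 23.2 and 38.2 CPM and wild type 3.79 and 4.3 CPM. There replicate 2 of each clone was higher than replicate 1, and all 4 lay above wild type. The other 4 lay on chromosomes 8, 2, 12 and 7. Each of the 20 regions kept its direction and stayed past the threshold under all 20 alternative settings tried.

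**Figure D1:**
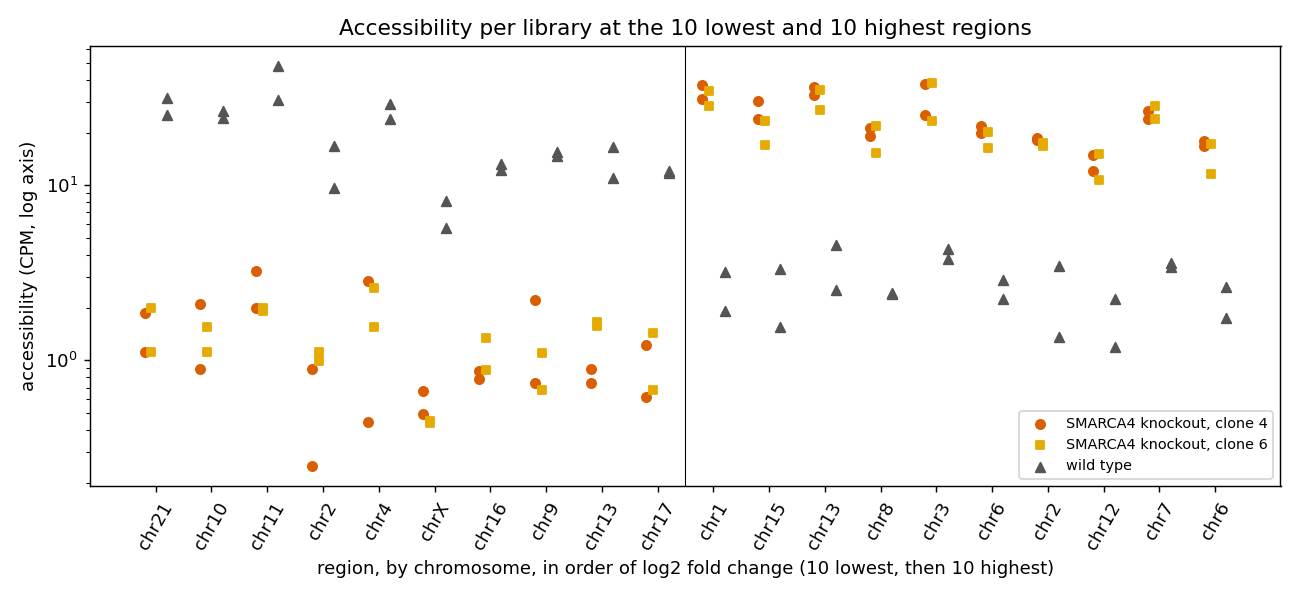
Accessibility in CPM (log axis) of each SMARCA4 knockout library (circles for clone 4, squares for clone 6) and each wild-type library (triangles) at the 10 lowest and 10 highest regions, labelled by chromosome. At the lowest regions the knockout averages span 0.513 to 2.28 CPM and the wild-type averages 6.95 to 39.4 CPM, and at the highest regions the knockout averages span 13.2 to 32.9 CPM and the wild-type averages 1.71 to 4.04 CPM.

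On the counts, lost and gained regions were wider than the rest, but on the authors' values less their median the gained share was 6.95% at the minimum width and 4.04% in the widest class, the opposite order. Listed regions were at most 3982 bp wide with a median of 622 bp, and 32.3% of the tested regions had the minimum width. Lost regions had a median width of 733 bp and gained regions of 738 bp, and regions of the minimum width made up 6.56% of the lost and 9.02% of the gained. The lost share was 2.82% at the minimum width, 10.9% in wider regions of up to 618 bp, 18% above that up to 697 bp, 25.3% above that up to 904 bp and 22.6% in the widest class. The gained share over the same classes was 2.24%, 6.26%, 9.71%, 9.68% and 17.4%. Wider regions also held more reads: the median wild-type level was 2.02 CPM at the minimum width and 13.7 CPM in the widest class. When regions were split into 4 equal classes by accessibility, the class just above the median still had a lost share of 3.20% at the minimum width and 27% in the widest regions, and a gained share of 6.49% and 6.59%.

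Among the widest regions the balance turned to gains on the counts. Of 960 regions of at least 2000 bp, 53 (5.52%) were lost and 248 (25.8%) were gained. With cyclic loess offsets 176 of these 960 (18.3%) were lost and 35 (3.65%) gained. The authors' values as deposited gave 3.33% lost and 4.9% gained, and after their median was subtracted 28.1% were lost and 0.938% gained. From the minimum width to the class above 904 bp, the lost share was higher in the wider class on each of these scales.

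**Figure D2:**
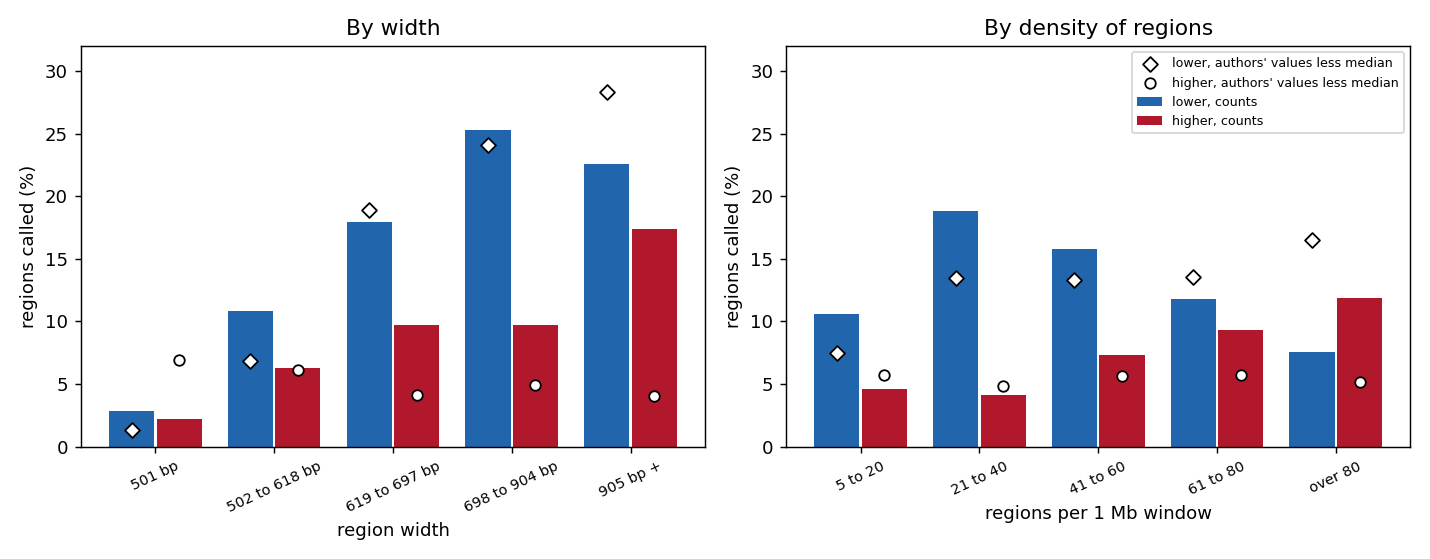
Percent of regions lower (blue) and higher (red) in the SMARCA4 knockout by region width and by the number of listed regions in the 1 Mb window, from the counts (bars) and from the authors' normalized values less their median (diamonds for lower, circles for higher). The lost share is lowest at the minimum width on both scales, at 2.82% on the counts against 22.6% in the widest class, while its fall on the counts from windows with 21 to 40 regions (18.8%) to those with over 80 (7.57%) is not seen on the authors' values. The gained share is higher in the widest class than at the minimum width on the counts and lower on the authors' values.

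The distance to the nearest other listed region separated lost from gained regions only weakly. It had a median of 5492 bp for lost regions, 4434 bp for gained regions and 5533 bp for all. The gained share was highest where regions lay close together, at 10.7% under 1 kb, and was 8.42% at 1 to 5 kb, 7.35% at 5 to 20 kb, 5.00% at 20 to 100 kb and 2.76% over 100 kb. The lost share was 13.2%, 14.6%, 13.5%, 15.1% and 5.83% over the same classes. In the most accessible of the 4 classes, the lost share was 15.4% under 1 kb and 29.0% at 20 to 100 kb, and the gained share was 21.5% and 17.2%. Only 326 regions lay over 100 kb from another. The called region of this class with the largest fold was on chromosome 14 from 97848816 to 97849446, 113757 bp from its neighbour. It held 1.36, 0.334, 0.224 and 0.772 CPM in the knockout and 4.27 and 5.26 CPM in wild type, so the groups did not overlap.

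At the narrowest regions the counts set limits. The largest fitted fold among the regions of minimum width was on chromosome 1 from 190036188 to 190036689, where the knockout libraries had 0, 0, 2 and 2 reads and the wild-type libraries 16 and 7 reads, too few for a useful fold. In the next width class, a region on chromosome 9 from 132796709 to 132797323 had 0 reads in both clone 4 libraries, 20 and 15 reads in the clone 6 libraries, and 20 and 31 reads in wild type. The clones differed there (adjusted p = 4.9e-05, edgeR), and only clone 4 was without reads.

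Regions called the same way lay next to each other more often than regions at large. For neighbouring regions under 1 kb apart, the next region was lost in 40.9% of cases after a lost region, in 10.1% after an uncalled region and in 2.18% after a gained region. The next region was gained in 31.8% of cases after a gained region, in 9.21% after an uncalled one and in 2.00% after a lost one. At gaps of 5 to 20 kb the next region was lost in 22.7% of cases after a lost region and gained in 14.7% of cases after a gained region. At gaps over 50 kb these shares were 22.7% and 11.2%, against 14.6% and 4.94% over all such pairs. The log2 fold changes of neighbours correlated at 0.512 under 1 kb, 0.320 at 1 to 5 kb, 0.220 at 5 to 20 kb and 0.171 over 50 kb, values that share libraries and are given as a description. Another lost region lay within 10 kb of 28.2% of the lost regions, and another gained region within 10 kb of 26.8% of the gained regions.

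**Figure D3:**
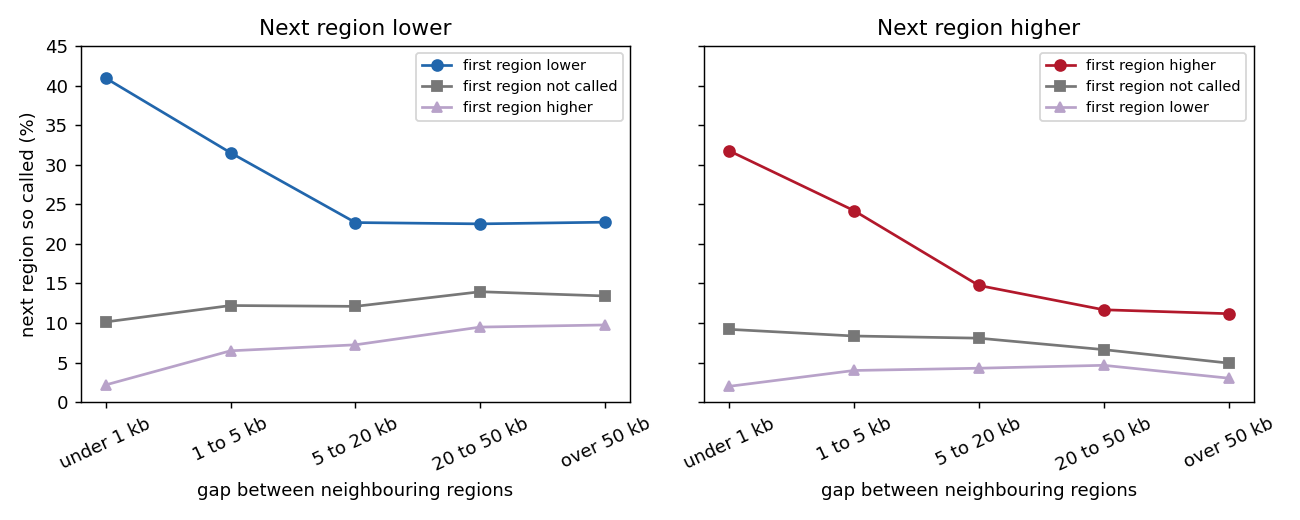
Percent of regions whose preceding neighbour has a given call that are themselves lower (left) or higher (right) in the SMARCA4 knockout, by the gap between the neighbours. Under 1 kb, 40.9% of regions after a lower region were lower and 31.8% of regions after a higher region were higher, and both shares were lower at gaps of 5 to 20 kb, at 22.7% and 14.7%.

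Long runs of calls in the same direction were more often losses than gains, but losses were also the more frequent call. They made up 13.9% of tested regions, and gains made up 8%. How far the runs follow from these shares was not tested. When consecutive listed regions with gaps of up to 50 kb were joined, 59.6% of lost regions and 69.1% of gained regions had no adjacent listed region called the same way, although 65.2% of lost and 58.8% of gained regions had another of their kind somewhere within 50 kb. Runs of at least 3 numbered 993 for losses, holding 3553 regions (17.6%), and 352 for gains, holding 1201 regions (10.3%). Runs of at least 5 numbered 121 for losses and 34 for gains. The longest run of losses had 15 regions, and the longest of gains had 8.

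The longest run of lost regions spanned 193 kb of chromosome 2, from 134022801 to 134215987. Its 15 regions fell by 1.13 to 3.29 on the log2 scale, and their summed accessibility was 28.4, 24.2, 31.5 and 24.2 CPM in the knockout and 131 and 110 CPM in wild type. The next longest had 11 regions each, on chromosome 7 from 114262039 to 114317926 and on chromosome X from 84690835 to 84803165. Their sums were 20.3, 17.7, 24.6 and 19.4 CPM in the knockout against 77.4 and 75.1 CPM in wild type on chromosome 7, and 21.2, 21.2, 22.9 and 22.5 CPM in the knockout against 91.4 and 82.1 CPM in wild type on chromosome X. In all 3 runs the knockout libraries were alike and lay far below wild type, and no region of them differed between the clones.

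Among gains, 8 neighbouring regions within 20.6 kb of chromosome 1, from 74969657 to 74990295, summed to 72.4, 94.7, 92.3 and 102 CPM in the knockout and 28 and 34.5 CPM in wild type. A second run of 8, on chromosome X from 10588031 to 10648349, summed to 126, 174, 116 and 170 CPM in the knockout and 71.9 and 70.6 CPM in wild type. Of the 14 gained runs of 6 regions, the one with the highest mean log2 fold change lay on chromosome 17 from 57831883 to 57878260 and held 38.6, 58.7, 42.6 and 47.3 CPM in the knockout and 16.9 and 14.5 CPM in wild type. The groups did not overlap in any of the 3 runs. The sums describe runs that were chosen for their calls.

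Chromosomes differed in their balance of losses and gains. On chromosome 19, 76 of 3408 regions (2.23%) were lost and 519 (15.2%) were gained on the counts, an excess of gains that turned round on the authors' values less their median, with 14.5% lost and 4.14% gained. Chromosome 22 had 5.99% lost and 8.72% gained, and chromosome 17 had 6.99% and 9.60%. At the other end were chromosome X, with 18.6% lost and 7.63% gained, chromosome 13, with 17.8% and 6.80%, and chromosome 4, with 16.7% and 7.04%. Their median log2 fold changes were -0.14, -0.13 and -0.11. Chromosome 19 is known as the most gene-dense human chromosome.

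The shift was visible in the raw share of reads. Chromosome 19 took 4.41%, 4.37%, 4.20% and 4.23% of the reads in the SMARCA4 knockout libraries and 3.65% and 3.85% in wild type. In the other 50 libraries of the knockout table the share ranged from 2.97% to 4.39% with a median of 3.63%, and 1 of them, a library of ARID1A knockout clone 3, lay above the lowest SMARCA4 library. The 4 libraries of the ARID1A knockout clones lay at 4.09% to 4.39%. Chromosomes 4, 13 and X together took 12.2% to 12.4% in the knockout and 13% and 12.8% in wild type, and 5 of the other 50 libraries lay below the highest knockout value. With 4 libraries against 2 an exact permutation test cannot give a p below 0.0667 even when one-sided, so none was used.

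**Figure D4:**
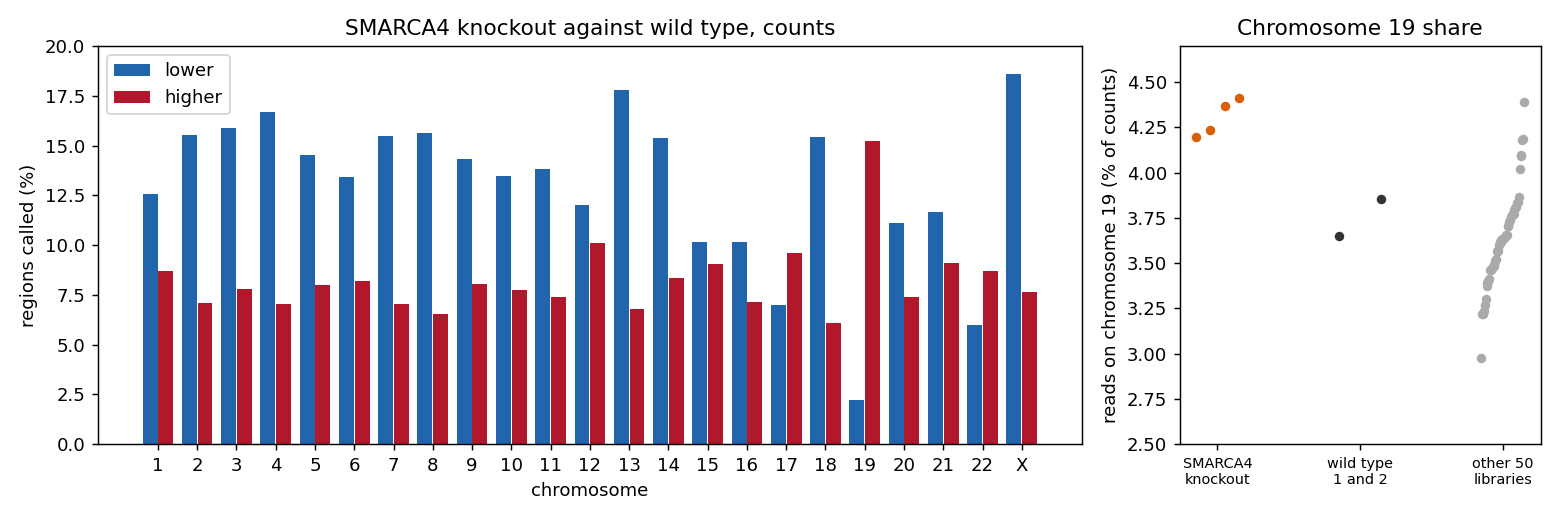
Left, percent of regions of each chromosome lower (blue) and higher (red) in the SMARCA4 knockout, from the counts. Right, percent of each library's reads in listed regions that fall on chromosome 19, where the knockout libraries lie at 4.20% to 4.41% and wild-type replicates 1 and 2 at 3.65% and 3.85%. The excess of gains on chromosome 19 turned round on the authors' values less their median.

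With cyclic loess offsets 2.08% of the regions of chromosome 19 were lost and 13.6% gained. On the authors' values less their median, chromosomes 22 and 17 also had more losses than gains, and on chromosome X the lost share was 15.9%, and the gained share was 5.49%. How the authors normalized these values is not given in the sources used here, and the part of base composition was not tested.

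Over larger stretches, the deepest losses went further than the strongest gains. Reads were summed over the regions of each 1 Mb window with at least 5 regions. Of 2834 windows, 598 (21.1%) were lower and 977 (34.5%) were higher in the knockout (edgeR, adjusted p of 0.05). When the windows were normalized by TMM, a scaling that assumes most features do not change, on their own sums, 879 were lower and 717 higher, so the split depended on the scaling. The count of higher windows was 601 without clone 4 replicate 2, 621 without clone 6 replicate 2 and 467 without wild-type replicate 2. At least 2-fold lower were 66 windows, and no called window was 2-fold higher, since the highest reached a log2 fold change of 0.80. In the 66 windows, 1025 of 2149 regions (47.7%) were lost and 2 (0.0931%) were gained, against 13.9% and 8% of all regions. The windows were chosen by the summed reads of these same regions, so the shares describe them and test nothing.

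The lowest window, on chromosome 11 from 55000001 to 56000000, held 18.1, 15.2, 22.8 and 18.3 CPM in the knockout and 81.5 and 68.8 CPM in wild type over 10 regions (log2 fold change -2.03, SE 0.138, adjusted p = 1.26e-16, edgeR). It contains the chromosome 11 region named above. On chromosome 2, the window starting at 117000001 held 32.6, 30.0, 36.7 and 35.3 CPM in the knockout and 141 and 110 CPM in wild type over 24 regions, of which 16 were lost (-1.91, SE 0.0982, adjusted p = 1.42e-20, edgeR). On chromosome X, the window starting at 141000001 held 55.8, 51.4, 66.8 and 65.9 CPM in the knockout and 197 and 171 CPM in wild type, with 25 of 41 regions lost. Windows starting at 3000001 on chromosome 5 and at 50000001 on chromosome 8 fell by 1.61 and 1.60 on the log2 scale, with 14 of 31 and 18 of 33 regions lost. None of the 5 contained a gained region, and none differed between the clones. The 5 windows were chosen for their low sums, so the absence of gained regions is a description.

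The highest called window was on chromosome 1, starting at 98000001, with 173, 181, 144 and 157 CPM in the knockout and 95.8 and 91.8 CPM in wild type over 18 regions (0.80, SE 0.0932, adjusted p = 8.87e-10, edgeR). On chromosome 10, the window starting at 91000001 had 87 regions, 33 gained and 1 lost, and summed to 738, 814, 707 and 787 CPM in the knockout and 452 and 446 CPM in wild type (0.76, SE 0.0628, adjusted p = 4.56e-14, edgeR). The others were on chromosome 20 starting at 59000001 and on chromosome 21 starting at 42000001 and 31000001, with 6 to 16 regions each and log2 fold changes of 0.72 to 0.79. In each of the 5 all knockout libraries lay above both wild-type libraries, a description of windows chosen for their high sums.

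On the counts, windows with 21 to 40 listed regions leaned towards loss and those with over 80 towards gain. Among 617 windows with 21 to 40 regions, 43.3% were lower and 16.7% higher, and among 158 windows with over 80 regions, 5.06% were lower and 73.4% higher. The sparsest windows did not extend this order, since of 182 with 5 to 20 regions 27.5% were lower and 19.8% higher, and 10.6% of their regions were lost and 4.56% gained. By single regions, 18.8% were lost and 4.15% gained in the windows with 21 to 40, and 7.57% were lost and 11.8% gained in those with over 80. With cyclic loess offsets these shares were 16.9% and 4.25% against 6.99% and 11.5%. On the authors' values less their median the order was different, with 13.4% lost and 4.82% gained at 21 to 40 regions, and 16.5% lost and 5.18% gained at over 80.

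Named loci were examined in windows set by hand on hg19, since no annotation of that build was used. Each count takes in every listed region of its window, so a window can also hold regions of other genes. Very large genes had more losses than regions at large. In 9 of them (FHIT, WWOX, LRP1B, CSMD1, DMD, PTPRD, MACROD2, CNTNAP2 and DLG2), several known as common fragile sites, 198 of 674 regions (29.4%) were lost and 20 (2.97%) gained, with a median log2 fold change of -0.56, against 13.9% and 8% and a median of 0.01 over all regions. With cyclic loess offsets 176 were lost and 22 gained. On the authors' values as deposited 64 (9.5%) were lost and 80 (11.9%) gained, against 5.76% and 18.1% of all regions. After their median was subtracted 110 (16.3%) were lost and 31 (4.6%) gained, against 13.6% and 5.5% of all regions.

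CNTNAP2, a cell adhesion gene, had 29 of 69 regions lost and none gained, and its regions summed to 128, 130, 149 and 136 CPM in the knockout and 331 and 299 CPM in wild type. Its strongest call, on chromosome 7 from 147600556 to 147601810, held 1.24, 2.00, 2.81 and 2.21 CPM in the knockout and 19.1 and 17.1 CPM in wild type. DMD, the dystrophin gene, had 27 of 68 regions lost and 1 gained. A region there, on chromosome X from 32010837 to 32011893, held 1.49, 1.56, 2.58 and 3.42 CPM in the knockout and 24.7 and 21.8 CPM in wild type (log2 fold change -3.44, SE 0.215, adjusted p = 3.1e-31, edgeR). FHIT had 24 of 66 lost and 2 gained, and CSMD1 had 15 of 66 lost and 1 gained. In DLG2, which encodes a synaptic scaffold protein, 38 of 131 were lost and 2 gained, and in PTPRD, a receptor tyrosine phosphatase gene, 31 of 136 were lost and 7 gained. LRP1B had 18 of 78 lost and 5 gained. On the authors' values less their median the genes differed around the lost share of all regions, 13.6%. The lost share was 31.9% in CNTNAP2, 22.7% in FHIT, 17.6% in DLG2 and 16.2% in DMD. It was 14.6% in MACROD2, 14.0% in PTPRD, 10.6% in CSMD1, 7.69% in LRP1B and 5.26% in WWOX.

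The FHIT window also held a strong gain. Its region on chromosome 3 from 61235540 to 61236106 held 18.8 and 19.2 CPM in clone 4 and 9.09 and 9.27 CPM in clone 6. Wild type held 3.40 and 2.27 CPM there. Both clones lay above wild type, and the difference between the clones was not called (log2 difference 1.05, adjusted p = 0.139, edgeR). MACROD2 had 10 of 41 lost, but its summed level was 85.9 and 90.2 CPM in clone 4, 139 and 153 CPM in clone 6, and 166 and 160 CPM in wild type. Here the loss was mainly in clone 4. WWOX, a tumour suppressor gene, had 6 of 19 regions lost, while its sum was 92.9 to 101 CPM in the knockout and 82.6 and 75.3 CPM in wild type.

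The gene-poor part of 21q21 had 52 of 208 regions (25%) lost and 14 (6.73%) gained, against 13.9% and 8% of all regions. It summed to 912, 976, 947 and 1051 CPM in the knockout and 1089 and 1052 CPM in wild type. The highest knockout sum nearly met the lowest wild-type sum. On the authors' values as deposited 13 of these regions (6.25%) were lost and 32 (15.4%) gained, against 5.76% and 18.1% of all regions. After their median was subtracted 33 (15.9%) were lost and 9 (4.33%) gained, against 13.6% and 5.5%, so both scales gave shares near those of all regions.

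Gene clusters had lost shares below that of all regions on the counts. Histone gene cluster 1 had 54 of 163 regions (33.1%) gained and 5 (3.07%) lost, against 8% and 13.9% of all tested regions. It summed to 2405, 2835, 2370 and 2998 CPM in the knockout and 2061 and 1942 CPM in wild type, so the groups did not overlap. Its strongest call, on chromosome 6 from 27570018 to 27570657, held 10.4, 13.7, 11.1 and 13.9 CPM in the knockout and 2.14 and 2.03 CPM in wild type (log2 fold change 2.55, SE 0.382, adjusted p = 1.75e-08, edgeR). The zinc-finger genes of distal 19q had 51 of 300 gained (17%) and 5 lost, and those of 19p12 had 14 of 42 gained and 1 lost. In the 19q stretch, a region on chromosome 19 from 55461920 to 55462794 held 13.3, 15.7, 10.5 and 13.9 CPM in the knockout and 1.46 and 1.08 CPM in wild type. The major histocompatibility complex had 24 of 280 gained (8.57%, near the 8% of all regions) and 11 lost (3.93%). With all wild type as the reference it had 71 gained, while the gained count over all 145532 tested regions rose from 11637 to 22845.

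On the authors' values less their median these directions changed in part. Histone gene cluster 1 then had 29 gained and 18 lost, the 19q stretch 19 gained and 55 lost, and the major histocompatibility complex 7 gained (2.5%) and 49 lost (17.5%), against 5.5% gained and 13.6% lost over all regions.

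The 4 HOX clusters, which encode patterning transcription factors, had 5 of 89 regions lost (5.62%, against 13.9% of all regions) and 8 gained (8.99%, against 8%) on the counts. The authors' values less their median gave 13 lost (14.6%, against 13.6%) and 4 gained (4.49%, against 5.5%). HOXD had 6 of 20 gained and none lost, HOXA had 3 of 25 lost and 1 gained, HOXC had 2 of 20 lost and 1 gained, and no region of HOXB was called. The HOXD window summed to 276, 282, 259 and 250 CPM in the knockout and 202 and 187 CPM in wild type. HOXD had 3 gained and none lost on the authors' values less their median. In the clustered protocadherins, 4 of 49 regions were gained (8.16%) and 3 lost (6.12%) on the counts, and on the authors' values less their median 14.3% were gained and 4.08% lost.

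Among the 8 genes of the complex examined, SMARCA2, the paralogous ATPase, had the highest gained share on the counts. Of its 16 regions 6 were gained (37.5%) and 1 lost (6.25%), against 8% and 13.9% of all regions. The window summed to 237, 254, 216 and 247 CPM in the knockout and 171 and 156 CPM in wild type, without overlap. The strongest, on chromosome 9 from 2179971 to 2181250, held 25.9, 32.3, 26.3 and 27.4 CPM in the knockout and 10.5 and 11.0 CPM in wild type (log2 fold change 1.38, SE 0.211, adjusted p = 3.31e-08, edgeR). It held 15.3 and 16.3 CPM in the separate knockout libraries with a control knockdown and 5.46 and 5.40 CPM in the matching wild type, with a fitted log2 fold change of 1.54 (SE 0.343, adjusted p = 0.000771, edgeR). In these libraries it was the one region of the window called higher, none was called lower, and the median log2 fold change of the 16 was 0.20. After SMARCA4 knockdown the region held 4.47 and 3.14 CPM, against the same control libraries, and was not called (log2 fold change -0.49, adjusted p = 0.526, edgeR). The SMARCA2 window on the authors' values less their median had 2 regions gained and 2 lost. Over all 8 genes of the complex examined, 15 of 109 regions were gained (13.8%) and 10 lost (9.17%), against 8% and 13.9% of all regions. On the authors' values less their median 9 were gained (8.26%) and 16 lost (14.7%), against 5.5% and 13.6% of all regions. ARID1B, the paralog of ARID1A, had 5 of 53 gained (9.43%) and 6 lost (11.3%), near the shares of all regions.

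HAP1 is known to carry a segment of chromosome 15 in an extra copy. Its 2558 regions had a median of 4.96 CPM in both the knockout and wild type, and the 2429 other regions of the chromosome had 3.38 CPM in the knockout and 3.54 CPM in wild type. Both groups thus showed the raised level. On the counts 224 regions of the segment (8.76%) were lost and 204 (7.97%) gained, against 13.9% and 8% of all regions. On the authors' values less their median 519 (20.3%) were lost and 64 (2.5%) gained, against 13.6% and 5.5% of all regions.

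The 2 knockout clones were close but not identical. Clone 4 differed from clone 6 at 326 of 145532 regions (0.224%), lower in clone 4 at 248 and higher at 78. This count was 185 without clone 4 replicate 1, 148 without clone 4 replicate 2 and 118 without clone 6 replicate 2. In summed windows the difference was plainer, with 90 of 2834 windows called and 83 of them lower in clone 4. Of these 90 windows 71 were also lower than wild type and 4 higher, and 15 of the 66 windows that were 2-fold lower than wild type differed between the clones. The largest clone difference was on chromosome 11 in the window starting at 37000001, which held 48.2 and 47.4 CPM in clone 4, 111 and 127 CPM in clone 6, and 145 and 150 CPM in wild type. On chromosome 2, the window starting at 79000001 held 51.9 and 44.3 CPM in clone 4, 97.2 and 101 CPM in clone 6, and 55.1 and 53.5 CPM in wild type. There clone 6 lay above and clone 4 below both wild-type values. Outside the 90 windows, 19162 regions were lost and 11556 gained.

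Separate libraries of SMARCA4 knockout cells, made with a control knockdown, showed many of the losses and some of the gains again. In them 12021 of 145617 regions (8.26%) had lower and 2175 (1.49%) had higher accessibility than wild-type cells with a control knockdown (edgeR, adjusted p of 0.05, n = 2 each). The labels do not say which knockout clone these cells came from. Of the 20194 lost regions tested there, 8970 (44.4%) were lower and 2 higher, with a median log2 fold change of -1.10, against a median of 0.08 for all regions. Of the 11635 gained regions, 1116 (9.59%) were higher and 4 lower, with a median of 0.37. Regions not called before were lower in 2.68% and higher in 0.928% of cases. Of losses of at least 4-fold, 80.3% were lower again, and of gains of at least 4-fold, 50.8% were higher again. The counts are sensitive to single libraries: without any 1 of the 4 libraries, 5591 to 7874 regions were lower and 662 to 1023 higher.

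**Figure D5:**
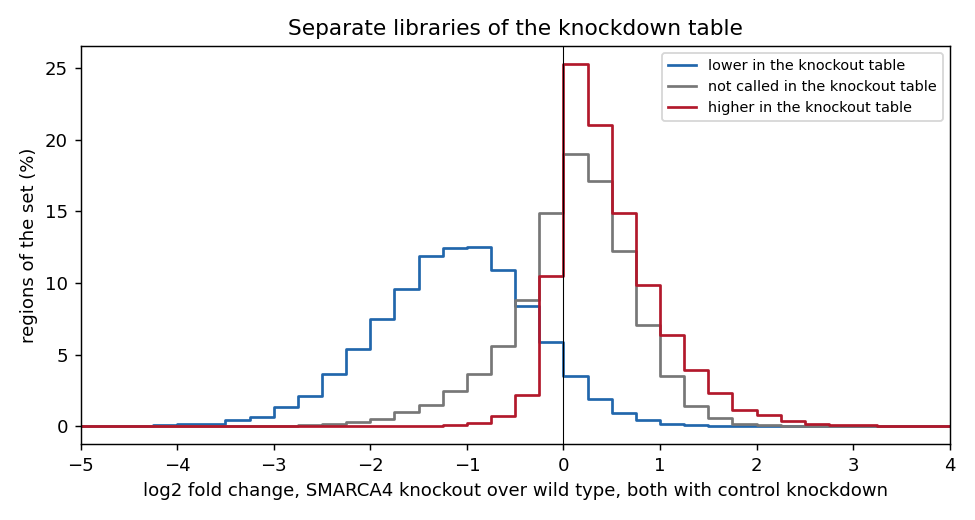
Log2 fold change of SMARCA4 knockout over wild-type cells, both with a control knockdown, for the regions lower, not called and higher in the knockout table, as percent of each set in steps of 0.25. Lower regions centre at a median of -1.10 and higher regions at 0.37.

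All 10 of the strongest losses were lower in these libraries, with log2 fold changes of -4.71 to -2.50, and 8 of the 10 strongest gains were higher. The chromosome 21 region held 2.37 and 1.89 CPM in the knockout and 32.6 and 31.9 CPM in wild type. The exceptions were the gains on chromosome 15, with 4.37 and 3.51 CPM in the knockout and 1.85 and 2.06 CPM in wild type (adjusted p = 0.217, edgeR), and on chromosome 12 from 32191804 to 32192795, with 7.98 and 4.45 CPM in the knockout and 2.54 and 3.09 CPM in wild type (adjusted p = 0.075, edgeR).

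The larger patterns recurred in part. On chromosome 19, 0.763% of regions were lower and 2.96% higher in these libraries, and on chromosome X 11.5% were lower and 1.47% higher. Over all regions 8.26% were lower and 1.49% higher, so the higher share of chromosome X was near that of all regions. In the very large genes 117 of 674 regions were lower and 9 higher, the latter also near the share of all regions. In the longest run of losses, 6 of 15 regions were lower, and in the longest run of gains, 4 of 8 were higher. The chromosome 10 window had 14 of 87 regions higher and 2 lower, while the highest window, on chromosome 1, had 1 of 18 higher and 1 lower.

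Lowering SMARCA4 by knockdown in wild-type cells lowered part of the same regions. Against the same control libraries as above, 7212 regions were lower (4.95%) and 1124 higher (0.772%). These counts were 2587 to 3360 and 273 to 515 without any 1 of the 4 libraries. Among the lost regions of the knockout 25.4% were lower, with a median log2 fold change of -0.78, and among the gained regions 2.44% were higher, with a median of 0.27, against 0.06 over all regions. The 2 comparisons share the control libraries, so they are given side by side. The chromosome 21 region held 9.93 and 6.95 CPM with the SMARCA4 knockdown and 32.6 and 31.9 CPM with the control knockdown. Of the strongest losses 6 of 10 were lower, and of the strongest gains 1 of 10 was higher, the region on chromosome 1 with 4.04 and 6.12 CPM after SMARCA4 knockdown and 0.780 and 1.29 CPM after control knockdown.

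SMARCA4 knockout chromatin also differed from that of the ARID1A knockout, which lacks a subunit of the canonical BAF form. In the direct comparison, which uses no wild-type library, 6700 regions were lower (4.6%) and 7789 higher (5.35%) in the SMARCA4 knockout than in the ARID1A knockout (edgeR, n = 4 each). The chromosome 21 region averaged 1.52 ± 0.468 CPM in the SMARCA4 knockout and 2.33 ± 0.498 CPM in the ARID1A knockout (SD, n = 4 each), a log2 difference of -0.60. The chromosome 11 region averaged 2.28 ± 0.63 CPM in the SMARCA4 knockout and 11.8 ± 2.10 CPM in the ARID1A knockout (log2 difference -2.37). The chromosome 1 gain averaged 32.9 ± 4.02 CPM in the SMARCA4 knockout and 5.42 ± 0.998 CPM in the ARID1A knockout (log2 difference 2.60). By contrast, the gain on chromosome 2 from 165972142 to 165973254 averaged 17.7 ± 0.824 CPM in the SMARCA4 knockout and 20.2 ± 3.22 CPM in the ARID1A knockout (log2 difference -0.18). These regions were chosen for their SMARCA4 values, so their differences are a description with no test.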

How the data were processed

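The authors' deposited knockout table holds counts, whole reads per region, of 145536 regions in 56 libraries, and a second deposited table holds counts of 16 knockdown libraries. The submitters' processing notes list hg19, MACS2 2.1.1.20160309, Picard 1.118 and Bowtie2 2.2.4, with no order. How regions were merged, and whether starts count from 0 or 1, is not given in the sources used here, so coordinates stand as deposited. The authors' deposited table of normalized values, 48 libraries, was taken as log2 from its scale and used only as an alternative. Columns of 2 libraries without a label were not used, and wild-type replicates 3 and 4 were not analysed here.

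Counts were tested with edgeR 4.0.16 in R 4.3.3 (quasi-likelihood test, TMM scaling, default filter, which 145532 regions passed, Benjamini-Hochberg adjustment over all regions, 2-sided). One fit held all libraries of a table, with 28 residual degrees of freedom for knockouts and 8 for knockdowns, and the knockout contrast was the mean of both clones minus wild type. DESeq2 1.42.0 and limma 3.58.1 served as alternatives. CPM are reads per 1000000 reads with TMM scaling, and the 4 accessibility classes use the mean CPM over all 56 libraries.

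Named regions are the 10 lowest and 10 highest by log2 fold change among called regions above the median accessibility, with knockout and wild-type libraries apart and no difference between clones. Per width class, distance class and locus, the called region with the largest fold was considered, as were the 3 longest runs and 5 extreme windows per direction. The regions, loci and lists were chosen with earlier results of these data known. A locus of the list of very large genes is not reported here, and counts over the list are those of the 9 genes named. In the edgeR fits each clone or knockdown group had its own coefficient. The p-values therefore rest on the spread between replicates within such groups, pooled over all libraries of a table. They do not measure the spread between clones. The labels do not say whether replicates are separate cultures, so the spread between replicates may be technical. Reads carry no molecular identifiers. Alternatives are given in the closing section.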

Additional observations from a re-analysis of the deposited data

Results flagged for a closer look

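Among 58 groups of 4 knockout libraries (the 20 named regions, 10 windows and 28 loci), 3 held a library far from the other 3, and about 1 in 20 groups does so by chance. Clone 4 replicate 1 held 3.22 CPM at the chromosome 11 region from 55198484 to 55199439, above the other knockout libraries. Clone 6 replicate 1 held 11.7 CPM at the chromosome 6 region from 94105211 to 94105864, below the others. Clone 6 replicate 2 held a sum of 450 CPM in the DLG2 window, above the others. A tested difference between the clones was found in 326 regions and in 90 windows of 1 Mb, and a tested difference between the SMARCA4 and ARID1A knockouts in 14489 regions. Their parts in the comparison with wild type were not tested beyond the counts outside those windows.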

How the results depend on the processing

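Against 20200 lost and 11637 gained regions, the lost count was 11619 with DESeq2 on the 6 libraries and 8380 on the authors' values. The gained count was 19940 with wild-type replicates 5 and 6 as reference, 22845 with all wild type, 26676 with the mean of other knockouts, 26377 on the authors' values, 6195 at an adjusted p of 0.01 and 3596 at 2-fold or more. Leaving out 1 library gave 12765 to 19769 lost and 5408 to 10184 gained. With a replicate block there were 20381 lost and 12002 gained, 607 lower and 1000 higher windows. Same-numbered libraries deviated together at r = 0.145 between the clones and at -0.01 with wild type, and in the knockdown table at 0.188 between SMARCA4 and control knockdown and 0.0781 between knockout and wild type. With 2 pairs and no batch named in the labels, whether same-numbered libraries were processed together is not known. In clones 4 and 6 the TMM factors were 0.980 and 0.982 for replicate 1, and 0.923 and 0.932 for replicate 2. The gained count was 10184 and 10103 without replicate 1 of clone 4 or of clone 6. It was 7135 and 7298 without replicate 2 of clone 4 or of clone 6. A shared effect of replicate number was not tested beyond the block. The block gave 11560 lower and 3813 higher regions after SMARCA4 knockdown and 4599 higher in the separate knockout libraries. There the higher count was 4520 with only the 4 libraries and 1304 with DESeq2. Leaving out 1 library gave 5591 to 7874 lower and 662 to 1023 higher there, and 2587 to 3360 lower and 273 to 515 higher after knockdown. Windows of 500 kb gave 1394 lower and 1768 higher, and of 2 Mb 246 and 533, which changes the number of windows. Leaving out 1 library gave 461 to 662 lower and 467 to 905 higher windows, and 118 to 286 regions differing between clones. The cause of the other shifts was not tested. Narrow regions with few reads limit what could be called. The other 75 values of these counts over all regions or windows stayed within 1.5 times, and the 20 strongest regions kept direction and call under all 20 settings. Of the shares by width class, chromosome and neighbouring call under these settings, 172 left the counting interval of the share given. With all wild type as reference, gained regions numbered 71 in the major histocompatibility complex, 555 in the chromosome 15 segment and 88 in distal 19q, and lost regions 51 in PTPRD. Over all 145532 tested regions the same reference gave 29575 lost and 22845 gained, so part of these rises is general. The counts outside windows that differ between clones and the shares on other scales by width, density, chromosome and locus were chosen after seeing the data.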

Other observations

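At 3 of the named regions a clone was without reads, where a count of 0 allows up to 3 reads per library. On chromosome 9 from 132796709 to 132797323 both clone 4 libraries had 0 reads, and the separate knockout libraries with a control knockdown held 2.87 and 2.16 CPM. In the WWOX window, on chromosome 16 from 78830044 to 78830545, the clone 4 libraries had 8 reads each, the clone 6 libraries 0, the wild-type libraries 21 and 14, and the separate knockout libraries 0 CPM. On chromosome 1 from 190036188 to 190036689 both clone 4 libraries had 0 reads, and the separate knockout libraries held 1.25 and 2.70 CPM.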
